A study of Mus musculus with 6 samples.

Results

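Heme is built in the liver mainly for cytochromes P450, and these results cover 9 genes of its synthesis and of the last step of its breakdown in mouse liver with and without Vps15. The genes were taken by name: Alas1, Alad, Uros, Urod, Cpox, Ppox and Fech of heme synthesis, and Blvra and Blvrb, which encode the biliverdin reductases. They are 9 of the 56305 genes in the table, and all 9 passed the filter on low values (a normalized count of 20 or more in 3 or more livers). RNA-seq was done on livers of 3 WT and 3 Vps15LKO male mice, all 5 weeks old, fed ad libitum under 12 h of light and 12 h of dark and collected at ZT6, that is, 6 h after lights on. Vps15LKO mice are AlbCre+;Vps15 f/f: Cre under the albumin promoter deletes Vps15, the regulatory subunit of class 3 PI3K, and cells that do not use that promoter keep the gene. The deletion was chronic. The labels give the control mice only as WT.

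Heme synthesis starts in mitochondria, where Alas1 joins glycine and succinyl-CoA in the step that limits the rate in liver, goes on in the cytosol with Alad, Uros and Urod among the enzymes, and returns to mitochondria for Cpox, Ppox and Fech, which inserts the iron. Heme oxygenases, Hmox1 and Hmox2, open the ring to biliverdin, and biliverdin reductases turn it into bilirubin. Liver Alas1 is known to be repressed by heme, to be induced by xenobiotic receptors and to follow the day, and Hmox1 is a classic target of Nrf2 (Nfe2l2).

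The libraries held between 16137093 and 18110223 reads on genes. The deposited values are normalized counts, reads divided by 1 DESeq2 size factor for each library, and these factors ranged from 0.742 to 0.801 for WT and from 1.23 to 1.41 for Vps15LKO. A read was thus worth more in WT, and the scaling placed the median over all genes tested at a log2 fold change of -0.02. The transcript of the targeted gene, Pik3r4 (which encodes Vps15), was at 508, 573 and 460 normalized counts in WT replicates 1, 2 and 3 and at 341, 362 and 355 in Vps15LKO replicates 1, 2 and 3, a log2 fold change of -0.54 ± 0.11 (SE), although it was 0.19 and not called when libraries were scaled to the same total of reads. WT replicate 3 differed more from WT replicates 1 and 2 (chi-square per gene 34.9 and 30.4) than these did from each other (15.01), and Vps15LKO replicates 2 and 3 differed by 40.9. All 12 hepatocyte markers were detected in every liver (their normalized counts summed to 3.18e+06 to 3.51e+06 in WT, against 1.03e+06 to 1.53e+06 in Vps15LKO), and 10 of 12 were called lower in Vps15LKO, among them Pck1 (35560 ± 6883 and 4447 ± 1342 normalized counts, mean ± SD, n = 3) and G6pc (4218 ± 1307 and 625 ± 571). Of the markers of other cells, 11 of 14 macrophage genes were called higher (summed level 12327 to 14318 in WT and 40837 to 45219 in Vps15LKO, Cd68 up by 3.15 and Ctss by 2.55 on the log2 scale). Clec4f (0.40), Timd4 (-0.62) and Mrc1 (-0.04) were not called. Called higher too were 9 of 9 tested cholangiocyte and progenitor genes (1288 to 1464 and 12752 to 24373, Spp1 4.69 and Prom1 4.16). So were 16 of 16 proliferation genes (423 to 933 and 4958 to 5358, Ccnb2 4.46, and Ccnb1 with 4, 0 and 15 reads in WT and 246, 208 and 315 in Vps15LKO). Some of these genes, such as Cftr, Cldn7, Bub1 and Aurkb, were below 20 normalized counts in every WT liver. They passed the filter only through Vps15LKO, so the filter set the direction of their calls. Of all tested genes, 33.0% were called lower and 33.5% higher. The part of these cells in the results below was not tested, and in bulk liver fewer hepatocytes and less RNA per hepatocyte cannot be told apart.

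By limma, 5 of the 9 genes were called lower in Vps15LKO than in WT liver and 2 higher (adjusted p below 0.05 with a change of 1.2-fold or more), and 2 were not called. Of all 15430 genes tested, 33.0% were called lower, 33.5% higher and 66.5% in either direction, so a call by itself was common in this comparison. The values of the genotypes did not overlap for 7 of the 9, against 73.2% of all tested genes. The genes called lower were Alad, Uros, Urod, Cpox and Fech, with a cytosolic and a mitochondrial part of the pathway both among them. The genes called higher were Blvra and Blvrb. Alas1 and Ppox lay between. The median log2 fold change over the 9 genes was -0.69, against -0.02 over all tested genes.

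**Figure D1:**
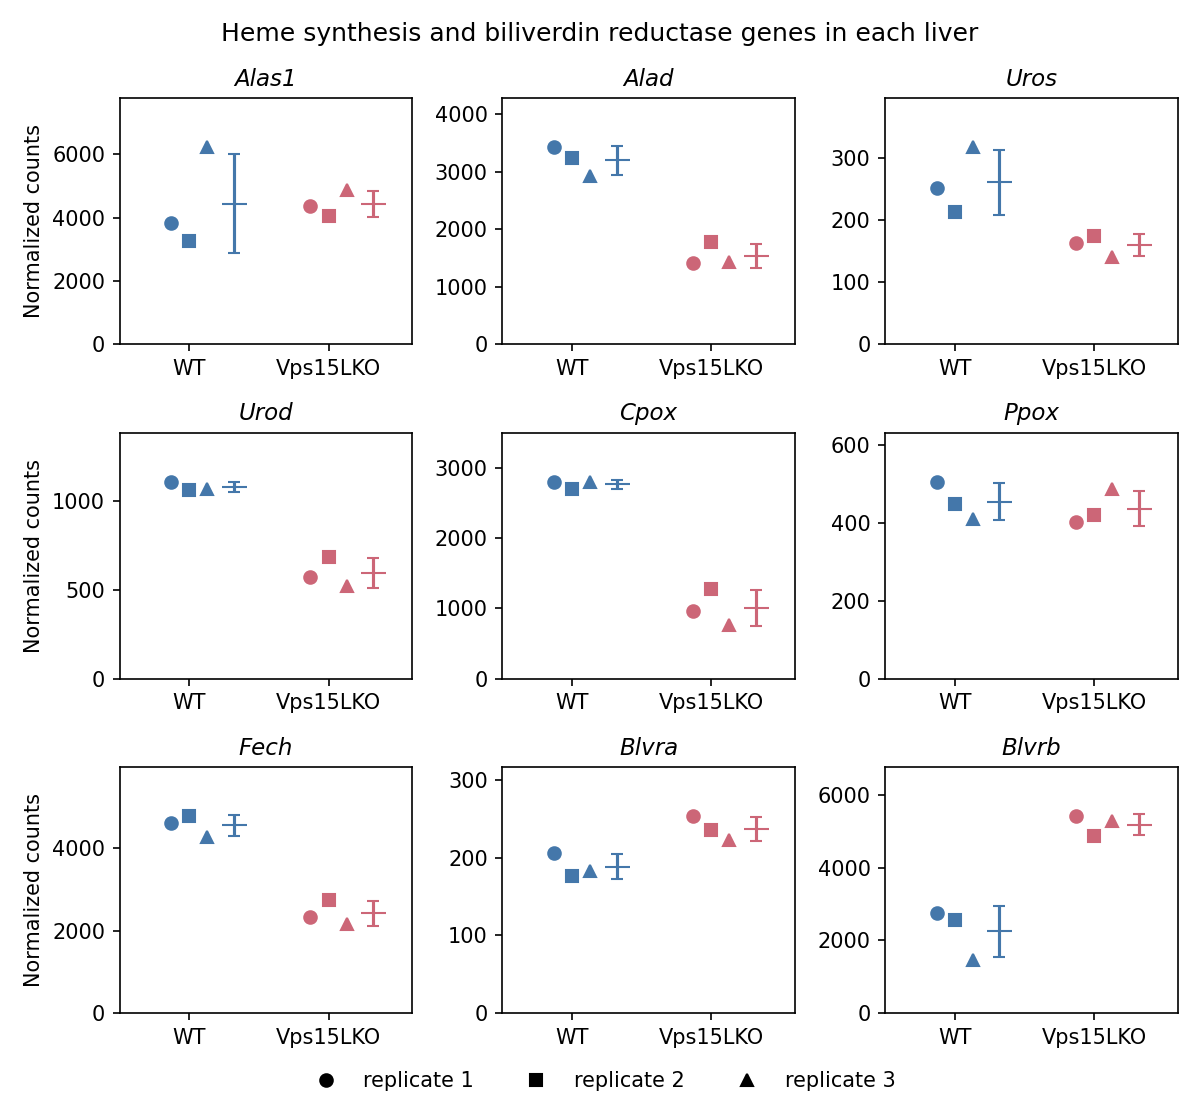
Normalized counts of the 9 genes in each liver (y axis, linear, from 0), with WT in blue and Vps15LKO in red. Symbols mark the replicate, and the bars to the right of each group give mean ± SD (n = 3). The groups lie apart in 7 panels, overlap for Alas1 and Ppox, and WT replicate 3 is high for Alas1 (6224) and low for Blvrb (1449).

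The study is about the clock factors Bmal1 and Clock, which bind the E-box CACGTG, so the letters before the start of these genes are shown. RefSeq windows of 300 bases, 250 before and 50 after the start (GRCm38.p6), were held for 8 of the 9 genes, 12 windows in all, since some genes have more than 1 start. These RefSeq starts need not be the ends of the GENCODE genes whose coordinates are given with the counts. CACGTG, which reads the same on both strands, was found in 4 of the 12 windows, in Alad (2 windows), Uros and Urod, and in 7.15% of all 32851 windows. These are 30-base stretches around the match, written 5′ to 3′ on the strand of the gene, with the E-box in capitals:
Alad, first window (chr4:62520151-62520180, minus strand, match 105 bases before the start): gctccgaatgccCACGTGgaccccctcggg
Alad, second window (chr4:62519920-62519949, minus strand, 28 bases before the start): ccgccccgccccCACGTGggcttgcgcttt
Uros (chr7:133709516-133709545, minus strand, 250 bases before this RefSeq start but inside the GENCODE span of Uros, within an exon of the neighbouring gene Bccip): CACGTGtgctttctcacctcgtccacgatt
Urod (chr4:116994445-116994474, minus strand, 49 bases before the start): cactggatcggtCACGTGgttctcaatatg

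Alad, Uros and Urod were all called lower, as were Cpox and Fech. Cpox has a window that holds no CACGTG, and for Fech none is shown. A match describes letters and not binding. 3 more motifs were searched on both strands. TGACNNNGC, the antioxidant response element that Nrf2 binds, was found in Blvra (12.4% of all windows), AGATAA, the motif of GATA factors, in Cpox (11.2%), and AGGTCA, a nuclear receptor half-site, in none of the 12 (16.3% of all windows). Both matches lie on the opposite strand and are shown in capitals on the strand of the gene:
Blvra (chr2:127070598-127070627, plus strand, 49 bases before the start): cacgggaattGCTCGGTCAaggctccgcct
Cpox (chr16:58670200-58670229, plus strand, 4 bases after the RefSeq start and before the GENCODE start of Cpox): cagggtgcagtcTTATCTgctctttccggg

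The windows of Alas1, Ppox and Blvrb held none of the 4 motifs, which says only that these letters are not there. A gene that fell and a gene that rose are set side by side below, as an example only. Cpox, which fell most, has no CACGTG in its window, and the second window of Blvrb is not shown. The 250 bases before the start are given for Urod, with its E-box in capitals, and for the first window of Blvrb, which has none of the motifs:
Urod (chr4:116994414-116994663, minus strand): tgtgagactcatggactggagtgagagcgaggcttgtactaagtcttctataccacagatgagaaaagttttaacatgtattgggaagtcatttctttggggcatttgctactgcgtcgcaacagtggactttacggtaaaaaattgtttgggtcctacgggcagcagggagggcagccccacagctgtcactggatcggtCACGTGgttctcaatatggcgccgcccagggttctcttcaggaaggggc
Blvrb (chr7:27447728-27447977, plus strand): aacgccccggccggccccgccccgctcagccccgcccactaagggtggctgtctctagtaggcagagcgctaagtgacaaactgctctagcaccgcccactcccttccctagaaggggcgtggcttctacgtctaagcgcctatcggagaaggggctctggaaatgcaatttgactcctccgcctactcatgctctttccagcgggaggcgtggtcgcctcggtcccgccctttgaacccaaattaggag

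Alas1 (ENSMUSG00000032786, chr9:106233455-106248654 of GRCm38), the rate-limiting enzyme, had 3839, 3258 and 6224 normalized counts in WT, against 4353, 4062 and 4868 in Vps15LKO. The Vps15LKO livers all lay inside the wide WT range, which WT replicate 3 set at its top. Its log2 fold change was 0.05 ± 0.22 (SE), with a 95% interval of -0.45 to 0.55 and adjusted p = 0.86 by limma. Without WT replicate 3 it was 0.32 (adjusted p = 0.06, limma), and the sign turned without WT replicate 1 (-0.028), WT replicate 2 (-0.15) or Vps15LKO replicate 3 (-0.022). Scaled to the same total of reads it was 0.77 (adjusted p = 0.012) and after quantile normalization 0.73 (adjusted p = 0.028), both called higher. The direction of Alas1 between the genotypes thus rested on the scaling and on single livers.

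Alad (ENSMUSG00000028393, chr4:62509169-62519918), which condenses aminolevulinate to porphobilinogen and is known as the enzyme that lead inhibits, had 3429, 3239 and 2925 normalized counts in WT and 1410, 1782 and 1422 in Vps15LKO. Every Vps15LKO liver was below every WT liver. It fell by 1.06 ± 0.12 on the log2 scale, a fold of 2.09 (adjusted p = 8.4e-05, limma).

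Uros (ENSMUSG00000030979, chr7:133686243-133710072), which makes uroporphyrinogen, had low counts, with 252, 214 and 318 normalized counts in WT and 163, 175 and 141 in Vps15LKO. It fell by 0.69 ± 0.17 (adjusted p = 0.0054), with no overlap of the groups. Urod (ENSMUSG00000028684, chr4:116989965-116994413), which removes carboxyl groups to give coproporphyrinogen, had 1107, 1058 and 1068 in WT and 572, 685 and 523 in Vps15LKO. The WT livers lay close together, and the fall was 0.87 ± 0.11, a fold of 1.83 (adjusted p = 0.00017).

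Cpox (ENSMUSG00000022742, chr16:58670292-58717636), the first of the late mitochondrial enzymes, fell most of the 9 under the deposited scaling, under quantile normalization and with equal read totals. It had 2802, 2697 and 2804 normalized counts in WT and 966, 1271 and 770 in Vps15LKO. The difference was -1.49 ± 0.16 (SE), a fall of 2.82-fold (adjusted p = 7.4e-05, limma). Ppox (ENSMUSG00000062729, chr1:171275990-171281186), which follows it and makes protoporphyrin, had 507, 448 and 411 in WT and 403, 421 and 489 in Vps15LKO. These groups overlapped, and the log2 fold change was -0.06 ± 0.12 with a 95% interval of -0.33 to 0.21 (adjusted p = 0.69). Ppox shares 791 bases of exon, 17.5% of its exons, with B4galt3 on the other strand, which was at 249 normalized counts in WT and 282 in Vps15LKO (means). The library protocol marks the strand, but whether the counting used it is not given in the sources used here, so reads of that stretch may be of either gene.

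Fech (ENSMUSG00000024588, chr18:64452914-64490251), ferrochelatase, had 4626, 4778 and 4266 normalized counts in WT and 2338, 2749 and 2167 in Vps15LKO. All 3 Vps15LKO livers were below the WT range, and it fell by 0.92 ± 0.11, a fold of 1.89 (adjusted p = 0.00015). Leaving out any 1 liver kept all 5 falls called, with Uros at its smallest at a log2 fold change of -0.54 and Cpox at its largest at -1.68.

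Blvrb (ENSMUSG00000040466, chr7:27447978-27466144), the biliverdin reductase that also reduces flavins and is best known from fetal liver and red cells, rose in Vps15LKO liver. It had 2737, 2551 and 1449 normalized counts in WT and 5408, 4860 and 5271 in Vps15LKO. The lowest Vps15LKO value was well above the highest WT value, and WT replicate 3 was lower than the other two. The rise was 1.26 ± 0.22 on the log2 scale, a fold of 2.39 (adjusted p = 0.00098, limma), and 0.97 without WT replicate 3 (adjusted p = 0.00016). It was called in all 21 alternatives that were run.

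Blvra (ENSMUSG00000001999, chr2:127070665-127097084), the main reductase of the biliverdin that adult heme breakdown yields, also had low counts, with 207, 176 and 183 normalized counts in WT and 254, 236 and 223 in Vps15LKO. The groups did not overlap, but by a small margin. Its log2 fold change was 0.33 ± 0.12, with a 95% interval of 0.06 to 0.60 and adjusted p = 0.032 by limma. The call was lost in 7 of the 21 alternatives, among them the fits without WT replicate 2 (adjusted p = 0.094), WT replicate 3 (0.065), Vps15LKO replicate 1 (0.13) and Vps15LKO replicate 2 (0.074). The other 3 were upper-quartile scaling, quantile normalization and a fold of at least 1.5, so the rise of Blvra is the least settled of the 7 calls.

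The direction of several of the 9 genes depended on how the libraries were brought to 1 scale. With equal read totals, the median of all tested genes moved up by 0.72, to 0.70, and 11.1% of tested genes were called lower and 66.8% higher. In that scaling 2 of the 9 were called lower, Alad (-0.33, adjusted p = 0.01) and Cpox (-0.77, adjusted p = 0.00046). Urod (-0.14) and Fech (-0.19) kept their sign and were not called, and Uros was at 0.03. The genes called higher there were Alas1, Ppox (0.67, adjusted p = 0.0012), Blvra (1.05, adjusted p = 4.8e-05) and Blvrb (1.98, adjusted p = 1.4e-05). Relative to the shifted median of 0.70, Alad, Uros, Urod, Cpox and Fech still lay below, Ppox just below and Alas1 just above. After quantile normalization, where 36.9% of tested genes were called lower and 31.2% higher, the 5 falls were called, as were rises of Alas1 and of Blvrb (1.90, adjusted p = 7.7e-05), while Blvra was at 0.14 (adjusted p = 0.29).

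**Figure D2:**
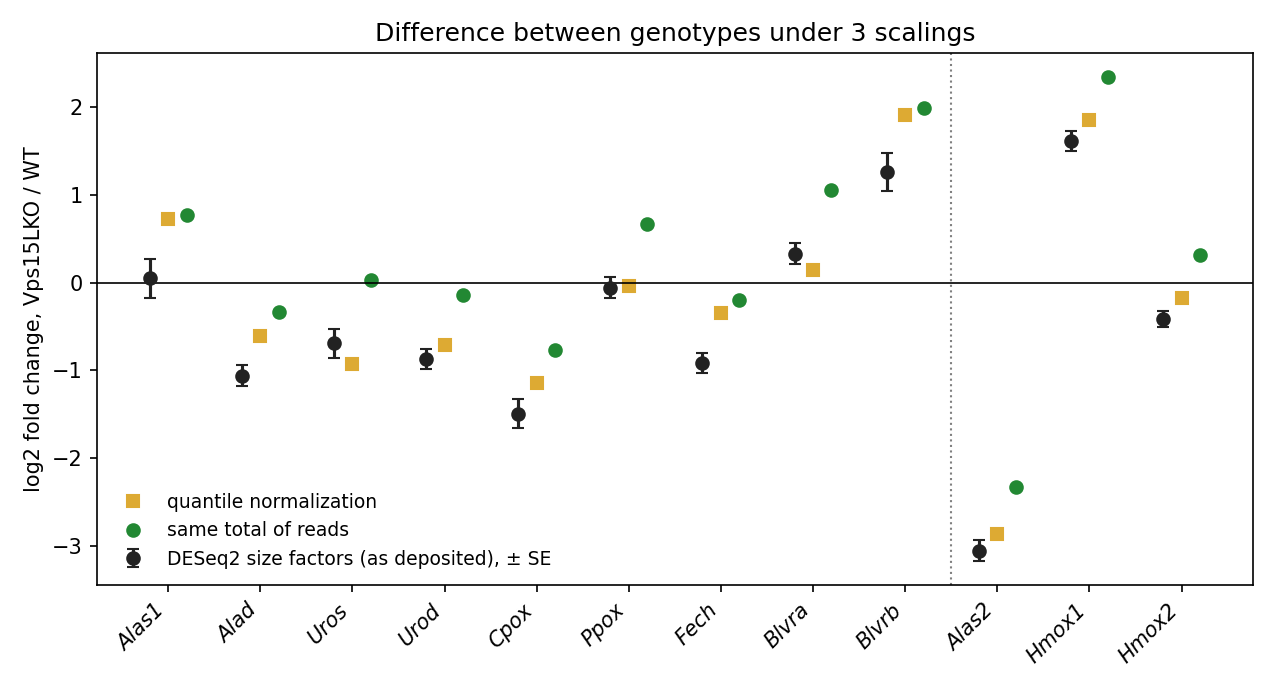
log2 fold change of Vps15LKO over WT (y axis) for the 9 genes and, right of the dotted line, Alas2, Hmox1 and Hmox2, under the deposited scaling (black, ± SE), quantile normalization (yellow squares) and equal read totals (green circles). Alad, Urod, Cpox, Fech and Alas2 are below 0 and Blvrb, Blvra and Hmox1 above 0 in all 3, while Alas1, Uros, Ppox and Hmox2 cross or touch the line.

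A comparison of genes within the same liver does not depend on a scaling factor. The level of each gene was therefore set against the mean log2 level of the 9 genes in that liver, as a description with no test. On this measure Cpox moved down by 1.11, Alad by 0.68, Fech by 0.54, Urod by 0.49 and Uros by 0.31 (differences of log2 values, Vps15LKO minus WT -1.11, -0.68, -0.54, -0.49 and -0.31). Blvrb moved up by 1.64, Blvra by 0.71 and Ppox by 0.33, and none of these 8 genes had overlapping groups. Alas1 moved by 0.43 with groups that overlapped. Since the 9 differences sum to 0 by construction, they show the order of the genes and not a change of the whole.

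**Figure D3:**
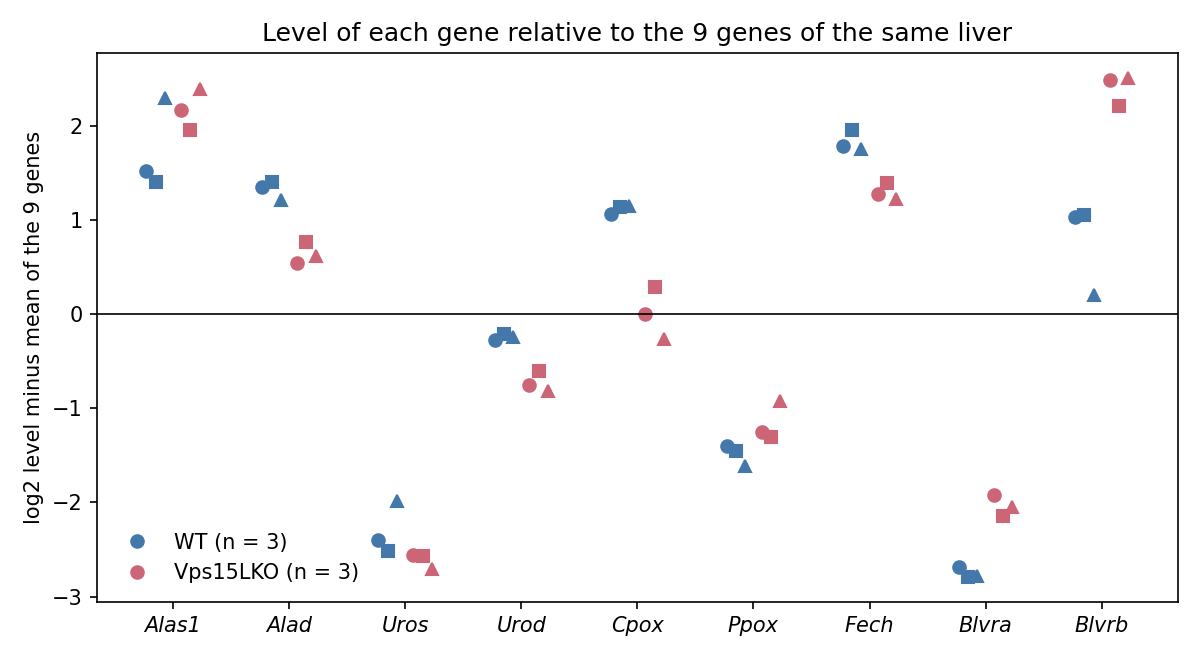
log2 level of each gene minus the mean of the 9 genes in the same liver (y axis), with WT in blue and Vps15LKO in red and symbols for the replicates as in the plot of normalized counts (circle 1, square 2, triangle 3). Blvrb rises from 0.20 to 1.06 in WT to 2.22 to 2.51 in Vps15LKO, Cpox drops from at least 1.07 to at most 0.28, and only Alas1 overlaps.

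The ratios between enzymes showed the same order. The ratio of the normalized counts of Alas1 to those of Cpox, not corrected for length, was 1.37, 1.21 and 2.22 in WT, against 4.51, 3.20 and 6.33 in Vps15LKO. All Vps15LKO livers were above WT. The log2 ratio of Alas1 to Alad rose from 0.42 ± 0.58 (SD, n = 3) to 1.53 ± 0.30 and that of Alas1 to Fech from -0.09 ± 0.57 to 0.88 ± 0.30, each with no overlap. The log2 ratio of Ppox to Cpox, neighbouring steps, went from -2.61 ± 0.15 to -1.17 ± 0.48. At the other end of the pathway the ratio of Blvrb to Blvra was 13.2, 14.5 and 7.90 in WT and 21.3, 20.6 and 23.7 in Vps15LKO, so every Vps15LKO liver was above every WT liver. The difference in this log2 ratio was 0.93, and 1.76 after quantile normalization.

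Per length, as normalized counts per kb of annotated exon, Alad was the most abundant of the 9 in WT liver (1709 ± 136, SD, n = 3). Blvrb (807 ± 250) and Alas1 (719 ± 255) came next and overlapped each other, followed by Urod (416 ± 10.06) and Cpox (415 ± 9.19), which did not differ beyond their spread, and by Fech (329 ± 19.0). Ppox (101 ± 10.6), Blvra (77.2 ± 6.57) and Uros (73.0 ± 14.8) were lowest, with overlap between Blvra and Uros. In Vps15LKO liver Blvrb led (1862 ± 103), above Alad (822 ± 113) and Alas1 (717 ± 66.1), which overlapped. Urod (229 ± 32.1), Fech (175 ± 21.6) and Cpox (150 ± 37.97) followed, the latter pair overlapping, and then Blvra (97.0 ± 6.31) with Ppox (96.9 ± 10.01), and Uros (44.7 ± 4.88). With the longest transcript as the length parts of this order changed. In WT, Alad (1808 ± 144), Blvrb (1493 ± 463) and Alas1 (1306 ± 462) then overlapped, Cpox (894 ± 19.8) was above Urod (724 ± 17.5), and Ppox (103 ± 10.9) had the lowest mean. In Vps15LKO, Alas1 (1303 ± 120) was then above Alad (869 ± 119) and Blvra (163 ± 10.6) above Ppox (99.2 ± 10.2), both with no overlap, and Blvrb (3444 ± 190) again led.

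**Figure D4:**
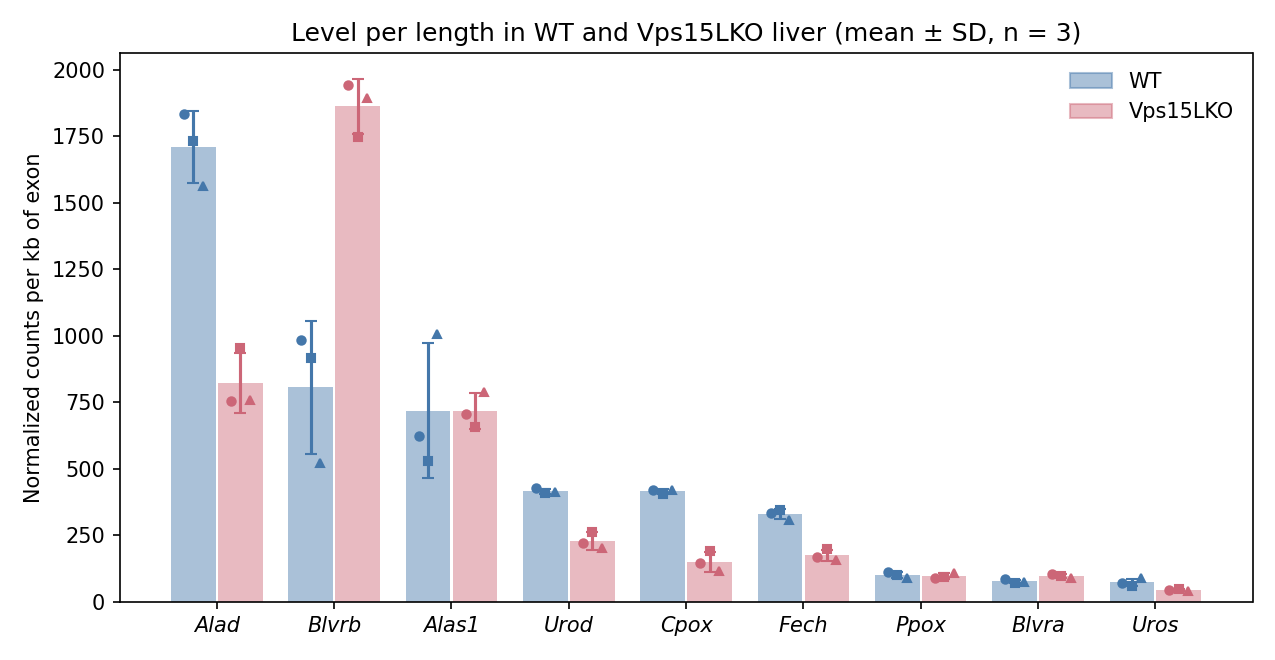
Normalized counts per kb of exon (y axis, linear, from 0) of the 9 genes, ordered by their WT mean; bars are means, error bars SD (n = 3) and symbols single livers, WT in blue and Vps15LKO in red. Alad leads in WT at 1709 and Blvrb in Vps15LKO at 1862.

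Alas2, Hmox1 and Hmox2 belong to the same pathway. Alas2, the erythroid form of the first enzyme, had 2602, 2723 and 2891 normalized counts in WT and 276, 358 and 355 in Vps15LKO. Per kb of exon its WT level was 1140 ± 60.6 (SD, n = 3), against 719 ± 255 for Alas1, and its Vps15LKO level 137 ± 19.3, against 717 ± 66.1. With the longest transcript as the length the WT levels were 1344 ± 71.5 and 1306 ± 462, and overlapped. It fell by 3.06 ± 0.12 on the log2 scale (adjusted p = 4.7e-07, limma), and by 2.33 with equal read totals. The ratio of Alas1 to Alas2 in normalized counts was 1.48, 1.196 and 2.15 in WT and 15.7, 11.3 and 13.7 in Vps15LKO. Alas2 shares 311 exon bases (12.9%) with Apex2 on the other strand, which went from 823 to 192 normalized counts (means).

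Markers of red cells were mostly not called or too low to test. The 4 haemoglobin genes summed to 4962 to 7135 normalized counts in WT, against 6412 to 8994 in Vps15LKO, and 0 of 4 were called by limma (0 at an unadjusted p under 0.05). On the recovered reads edgeR called 0 of them, limma voom 0 and DESeq2 1, higher, with 1, 2 and 1 higher at an unadjusted p under 0.05, and with equal read totals limma called all 4 higher. The other 14 erythroid markers summed to 95.7 to 142 in WT and 136 to 175 in Vps15LKO, 7 of them with 0 reads in every WT liver, 9 with at most 3 there, and 0 with 0 reads in every Vps15LKO liver. Over the whole table, 21588 to 21974 genes were above 0 in a WT library and 24264 to 25096 in a Vps15LKO library. Klf1 made up most of the WT sum (86.2, 106 and 58.0 in WT, 18.3, 11.3 and 17.7 in Vps15LKO), and the 13 markers without it, a sum chosen after these values were seen, came to 26.5 to 37.7 in WT, against 118 to 158 in Vps15LKO. Only 3 of the 14 passed the filter, with Slc4a1 and Tal1 called higher and Klf1 lower. Slc4a1 passed only through the Vps15LKO livers and Klf1 only through the WT livers, so the filter set the direction of their calls. Gata1, a factor of the erythroid lineage but not of it alone, had 0 reads in all WT livers and 1, 2 and 2 reads in the Vps15LKO livers. Their part in the results for the heme genes was not tested.

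Heme oxygenase split by form. Hmox1, the inducible form, had 532, 636 and 511 normalized counts in WT and 1856, 1767 and 1521 in Vps15LKO, a rise of 1.62 ± 0.12 on the log2 scale (adjusted p = 9.1e-06). Hmox2, the constitutive form, had 1330, 1120 and 1270 in WT and 899, 928 and 953 in Vps15LKO. It fell by 0.42 ± 0.09 (adjusted p = 0.004) under the deposited scaling and was called higher, at 0.31, with equal read totals. The fall was not called after quantile normalization (-0.17, adjusted p = 0.14) or at a fold of at least 1.5. Hmox2 shares 892 exon bases (40.2%) with Cdip1 on the other strand (2366 and 1397). The ratio of Hmox1 to Hmox2 in normalized counts was 0.400, 0.567 and 0.402 in WT, against 2.06, 1.90 and 1.59 in Vps15LKO. Per kb of exon Hmox1 was below Hmox2 in WT (320 ± 38.2 against 559 ± 48.7) and above it in Vps15LKO (979 ± 99.1 against 418 ± 12.3). The log2 ratio of Blvrb to Hmox1 differed by -0.36 between genotypes, with overlapping groups, and by -0.15 without WT replicate 1 and -0.58 without WT replicate 3.

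Around the enzymes stand the mitochondrial carriers and the proteins that make iron-sulphur clusters and succinyl-CoA. Of 22 tested, 18 were called lower and 1 higher (median -0.69), beside 33.0% and 33.5% of all tested genes. With equal read totals 5 were lower and 6 higher, beside 11.1% and 66.8% of all tested genes. Abcb10, a mitochondrial transporter needed for heme synthesis in red cells, was at 746 ± 44.3 normalized counts in WT and 194 ± 52.5 in Vps15LKO (log2 fold change -1.97, adjusted p = 2.5e-05). Abcb6, known as a porphyrin transporter, was at 1669 ± 221 and 665 ± 161 (-1.34, adjusted p = 0.0002). Both were called lower with equal read totals too. Tspo, the outer membrane protein that binds porphyrins, was the 1 that rose, from 586 ± 85.6 to 999 ± 33.7 (0.78, adjusted p = 0.00037).

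Of 13 genes of heme and haemoglobin transport, 8 were called lower and 3 higher (median -0.81), beside 33.0% and 33.5% of all tested genes. With equal read totals 5 were lower and 5 higher (median -0.085), beside 11.1% and 66.8% of all tested genes. After quantile normalization 6 were lower and 4 higher (median 0.0491), beside 36.9% and 31.2%. Slc48a1 (Hrg1), which carries heme out of lysosomes, rose from 1492 ± 78.7 to 4032 ± 73.9 (1.43, adjusted p = 3.7e-06), and Flvcr2, a relative of the heme exporter Flvcr1, rose from 101 ± 33.3 to 219 ± 31.2 (1.16, adjusted p = 0.0028). Cd163, the haemoglobin receptor of macrophages, fell from 247 ± 16.6 to 29.5 ± 5.40 (-3.04, adjusted p = 2.5e-06) beside the 11 macrophage markers that were higher. Fabp1, a hepatocyte lipid carrier that also binds heme, fell by 2.84 (adjusted p = 0.00018).

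Of 13 genes of bilirubin handling, 6 were called lower and 5 higher (median -0.28), beside 33.0% and 33.5% of all tested genes. With equal read totals 6 were lower and 7 higher (median 0.45), beside 11.1% and 66.8% of all tested genes. After quantile normalization 4 were lower and 7 higher (median 0.62), beside 36.9% and 31.2%. The uptake carriers Slco1a1 (10457 ± 483 in WT and 27.4 ± 30.3 in Vps15LKO, -9.06, adjusted p = 5.4e-06) and Slco1b2 (21476 ± 1395 and 2783 ± 1064, -3.02, adjusted p = 1.6e-05) fell. The exporter Abcc4 rose from 96.4 ± 26.9 to 2548 ± 230 (4.74, adjusted p = 5.8e-07), and Gsta1, a glutathione transferase of the class known as ligandin, from 35.3 ± 32.4 to 1931 ± 117 (6.16, adjusted p = 2.8e-05). Gsta1 has a near-identical neighbour, Gsta2, and how reads were split between them is uncertain.

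Among 20 known regulators of Alas1 and Hmox1, 13 were called lower and 3 higher (median -0.62, and 0.11 with equal read totals, where 4 were lower and 9 higher). Nr1i3 (CAR), a xenobiotic receptor known to induce Alas1, fell from 3990 ± 988 to 908 ± 202 normalized counts (-2.13, adjusted p = 5.2e-05), and its partner Rxra fell by 1.42 (adjusted p = 5.4e-05). Nfe2l2, which encodes Nrf2, rose from 1439 ± 116 to 2228 ± 109 (0.63, adjusted p = 0.00043), and Mafk, a small Maf partner, rose by 0.71 (adjusted p = 0.0016). These 4 genes had the same calls with equal read totals.

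Cytochromes P450 and other proteins carry the heme. Of 24 tested hepatic cytochromes P450 in this list, 23 were called lower and 0 higher by limma (median -2.84), beside 33.0% and 33.5% of all tested genes. The count higher was 0 at an unadjusted p under 0.05, 0 by edgeR, DESeq2 or limma voom, 0 with equal read totals and 1 after quantile normalization. Cyp2a5, a cytochrome P450 counted with the bilirubin genes instead, was called higher (1.28, adjusted p = 0.011 by limma), also with equal read totals (2.01). Cyp7b1, an oxysterol hydroxylase, fell by 5.05 (adjusted p = 7.8e-06) and Cyp2c54 fell by 4.61 (adjusted p = 0.00028). Of 12 other tested heme proteins, 8 were lower and 3 higher (median -1.11), beside 33.0% and 33.5% of all tested genes. With equal read totals 7 were lower and 4 higher (median -0.38), beside 11.1% and 66.8%. After quantile normalization 6 were lower and 3 higher (median -0.45), beside 36.9% and 31.2%. Ido2, a tryptophan-cleaving enzyme, fell by 2.78 (adjusted p = 9.3e-06) and Suox, sulphite oxidase, by 2.53 (adjusted p = 6.5e-05), while Cygb, cytoglobin, a marker of stellate cells, rose by 2.88 (adjusted p = 1.6e-05) and the peroxidasin gene Pxdn by 1.16 (adjusted p = 2.5e-05). Among 20 genes of iron handling, 9 were lower and 3 higher (median -0.28), beside 33.0% and 33.5% of all tested genes. With equal read totals 7 were lower and 11 higher (median 0.45, beside 11.1% and 66.8% of all tested genes), and after quantile normalization 8 and 8 (median 0.0014). Hepcidin fell, with Hamp at -1.84 (adjusted p = 0.00029) and its copy Hamp2 at -2.61 (adjusted p = 6.2e-05), and the transferrin receptor Tfrc rose by 1.51 (adjusted p = 6.7e-05) and ferritin heavy chain Fth1 by 0.72 (adjusted p = 0.016).

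**Figure D5:**
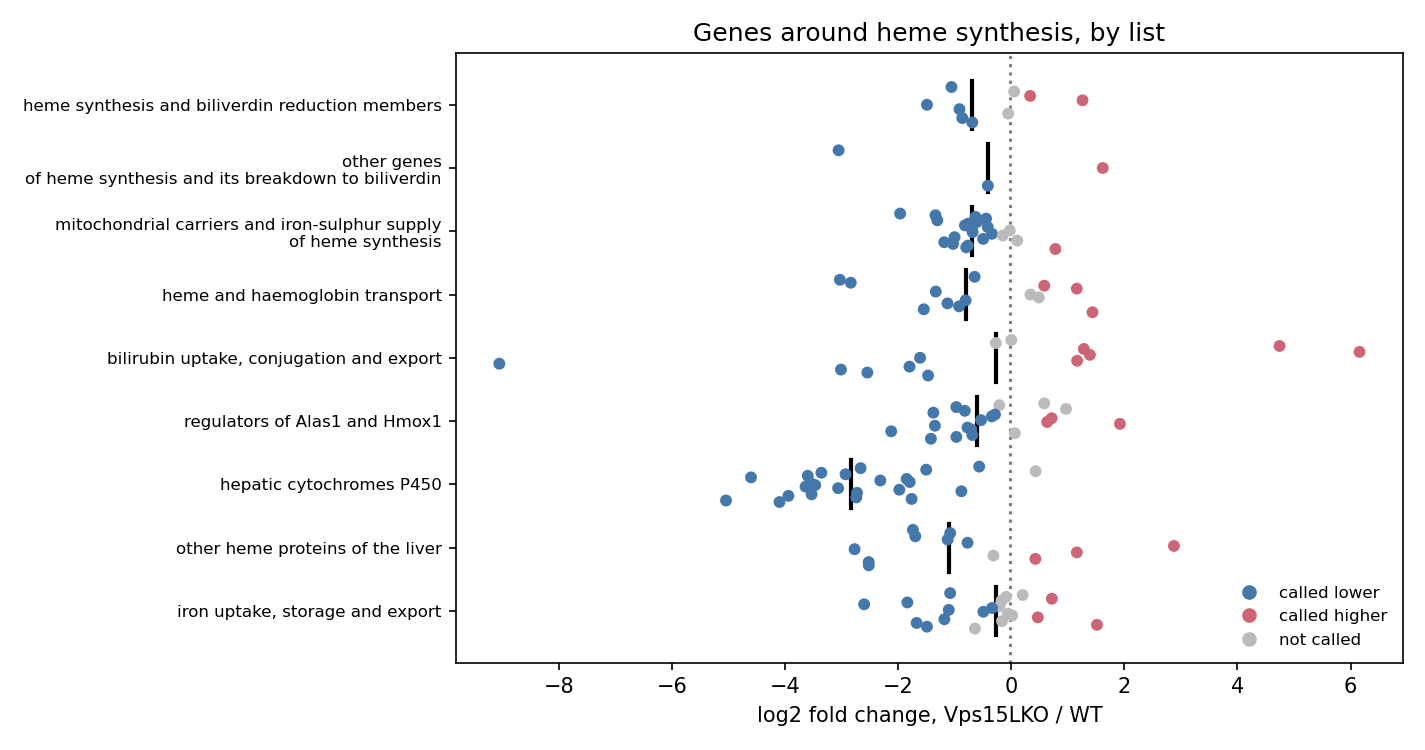
log2 fold change of Vps15LKO over WT (x axis) for each tested gene of 9 lists (rows), with genes called lower in blue, called higher in red and not called in grey. Black lines mark the medians and the dotted line the median of all tested genes (-0.02); cytochromes P450 have the lowest median at -2.84, and the lists of bilirubin and iron genes the highest at -0.28.

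The genes most like Alas1 across the 6 livers, among 11247 whose mean normalized count was 100 or more, were Tsc22d1 (Pearson r = 0.993), 2310033P09Rik (0.980) and Edem2 (0.971) on the log2 scale. This describes 6 livers only. Tsc22d1 had 1026, 878 and 1930 normalized counts in WT and 1273, 1186 and 1519 in Vps15LKO, and so shared the high value of WT replicate 3 with Alas1.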

How the data were processed

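Liver RNA of 3 WT and 3 Vps15LKO mice was sequenced as 1 library per mouse, grouped by the genotype in the labels. The authors filtered reads with SOAPnuke, aligned them with HISAT2 to GRCm38, obtained counts per gene from featureCounts and applied DESeq2 normalization. Versions are not given in the sources used here. The deposited values are a signal, counts divided by 1 size factor per library. All values were whole multiples of 1 read within 0.01 reads, so reads were recovered, and DESeq2 size factors computed from them were the same as the authors'. Sums of reads are given in the report. The depth of each gene enters the spread between mice, so no separate counting interval is given.

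Genes were named from GENCODE M21 (55227 of 56305 matched, and 212 of 213 list entries), and promoters from RefSeq. log2(normalized count + 1) of 15430 genes was compared with limma 3.58.1 (lmFit, eBayes with a trend) in R 4.3.3, two-sided, with Benjamini-Hochberg adjustment over all of them. Fold changes on this scale understate changes of low genes. The smallest exact permutation p for a single gene with 3 livers per genotype is 0.1. Named genes were the 9, Alas2, Hmox1, Hmox2 and Pik3r4, in each list the 2 called genes that rose most and the 2 that fell most, if their mean normalized count was 100 or more and the genotypes did not overlap, and the 3 genes most correlated with Alas1. Slc4a1, Tal1, Klf1, Gata1, Gsta2 and genes on the opposite strand (Apex2, B4galt3, Cdip1 and Bccip) were named after their values were seen, and 1 gene of the pathway is not reported here. The members and lists were chosen with earlier results of these data known. Alternatives were other pseudocounts, filters, scalings and fold thresholds, the recovered reads in DESeq2 1.42.0, edgeR 4.0.16 and limma voom, no trend in limma, each liver left out, and a replicate block. Python 3.11.15, numpy 2.4.6, pandas 2.3.3 and matplotlib 3.10.9 were used.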

Additional observations from a re-analysis of the deposited data

How the results depend on the processing

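Alad, Cpox, Blvrb, Alas2 and Hmox1 kept their direction and call in all 21 alternatives, and Urod and Fech in 20 of 21. Scaling to equal read totals gave 1710 genes lower and 10301 higher, 2 of the 9 genes lower and 4 higher, and turned the sign of Uros (0.0303), Ppox (0.67), Hmox2 (0.31), Pik3r4 (0.19) and of the medians of the 9 genes (0.0303), the 3 genes Alas2, Hmox1 and Hmox2 (0.31), the mitochondrial carriers (0.0319), the bilirubin genes (0.45), the regulators (0.11) and the iron genes (0.45), because it moves the median of all genes by 0.72. Quantile normalization turned the medians of heme transport (0.0491), bilirubin (0.62) and iron genes (0.0014) and the log2 ratio of Blvrb to Hmox1 (0.0512); the cause was not tested. Upper-quartile scaling left 1 of the 9 higher and put Alas1 at -0.048, and a fold of at least 1.5 left 1 higher, both without Blvra. Hmox2 lost its call after quantile normalization (-0.17) and at a fold of at least 1.5. Leaving out 1 liver gave 1 to 2 of the 9 higher, -0.15 to 0.32 for Alas1 and -0.14 to 0.022 for Ppox. Same-numbered livers did not deviate together (correlations -0.0099, -0.0114 and 0.0485), so the replicate block is given only here: it called 4983 genes lower and 5065 higher, and 5 of the 9 lower and 2 higher. Among the 9 genes, with 3 livers per genotype, the precision was lowest for Alas1 and Blvrb, where WT replicate 3 stood apart.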
